A study of Mus musculus with 11 samples.

Results

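Ubash3a, Ubash3b, Cbl, Cblb, Ptpn6, Ptpn22 and Inpp5d, a set of genes that restrain signalling from antigen receptors, were followed in mouse splenic B cells on 11 Affymetrix whole-genome mouse arrays. Each gene is represented by the probe sets whose platform annotation names its symbol and no other, 16 of 45101 probe sets in all, and the set makes up 7 of the 18193 genes tested. Ubash3b has 3 probe sets, Cbl 3, Cblb 3, Ubash3a 2, Ptpn6 2, Inpp5d 2 and Ptpn22 1. The set was chosen by a measured value, the strain difference of Ubash3b in these same arrays, so that difference is described here without a test. The other 6 genes were taken with it, also with earlier results known.

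The cells came from 2 strains of female mice aged 6 weeks. NOD (NOD/ShiLtJ) mice develop autoimmune diabetes, and NR4 (NOD.NOR-Chr4/DvsJ) mice are NOD mice in which part of chromosome 4 comes from the NOR strain. By this design the strains share the rest of the NOD background, but their genotypes were not examined here. Spleens of 7 to 8 mice were pooled per lot, B cells were enriched by magnetic removal of other cells, and each lot was cultured for 2 h. One culture received medium only (unstimulated) and the other 10 µg/ml of goat anti-mouse IgM as F(ab')2 fragments, which cross-link the B cell receptor (anti-IgM). NOD cells gave 3 unstimulated and 2 anti-IgM arrays, and NR4 cells gave 3 of each. Each array is a pool of mice, and both cultures of a strain were drawn from its lots.

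Values are log2 signals, each probe set centred on its median over the 11 arrays, so a value of 0 is the middle array and not a lack of signal. Centring removes levels: expression cannot be compared between genes, the presence of B cell markers cannot be checked, and an abundant transcript looks like one near background. Where a gene has several probe sets their median was used. In such bulk samples, fewer cells of a type and less RNA per cell cannot be told apart. On 1 array, NR4 anti-IgM replicate 1, the 3' probe sets of the actin and Gapdh controls exceeded the 5' ones by 0.96 log2 units on average, against -0.08 to 0.29 on the other 10 arrays. This difference also ran with the culture, apart from NR4 unstimulated replicate 3. It was 0.21 and 0.13 on the anti-IgM NOD arrays and 0.04 and 0.23 on the other anti-IgM NR4 arrays. Unstimulated arrays stood at -0.01, -0.04 and -0.08 in NOD and at -0.05, -0.07 and 0.29 in NR4. Leaving out 1 array does not balance it, and its part in the responses was not tested. Estimates without NR4 anti-IgM replicate 1 are given for Ptpn22, Ptpn6 and Inpp5d and for the pathway genes that passed.

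As background, B cell receptor ligation activates SRC family kinases and SYK, which phosphorylate the receptor and its adaptors, and the 7 proteins act against this at different steps. UBASH3A and UBASH3B (also called STS-2 and STS-1) carry a ubiquitin-binding domain, an SH3 domain that binds CBL proteins and a histidine phosphatase domain, which in UBASH3B is an active tyrosine phosphatase for SYK and ZAP70. CBL and CBLB are RING ubiquitin ligases that mark activated kinases and adaptors for removal. PTPN6 (SHP-1) is brought to the membrane by inhibitory receptors such as CD22, PTPN22 acts with CSK on SRC family kinases, and INPP5D (SHIP1) degrades the lipid messenger made by PI3 kinase and is recruited by the Fc receptor FCGR2B.

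Promoters are shown for the gene with the strain difference (Ubash3b) and the pair with the largest responses (Ptpn22 and Ptpn6). That of Cbl is added because it alone in the set matched the EGR site, which is defined after the sequences. Each runs 5' to 3' on the gene's strand from 250 bases before to 50 bases after the annotated start, in RefSeq sequence of GRCm38.p6. Capitals mark matches on either strand to the motifs named after the sequences. Ubash3b and Ptpn22 each have 2 annotated starts, and the upstream one is shown.
Ubash3b, chr9:41158013-41158312, minus strand: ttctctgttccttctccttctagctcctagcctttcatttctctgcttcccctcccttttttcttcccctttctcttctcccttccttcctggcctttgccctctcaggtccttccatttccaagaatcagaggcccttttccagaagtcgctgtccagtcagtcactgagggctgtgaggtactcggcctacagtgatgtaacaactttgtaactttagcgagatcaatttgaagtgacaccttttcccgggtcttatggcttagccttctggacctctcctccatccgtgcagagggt
Ptpn22, chr3:103859545-103859844, plus strand: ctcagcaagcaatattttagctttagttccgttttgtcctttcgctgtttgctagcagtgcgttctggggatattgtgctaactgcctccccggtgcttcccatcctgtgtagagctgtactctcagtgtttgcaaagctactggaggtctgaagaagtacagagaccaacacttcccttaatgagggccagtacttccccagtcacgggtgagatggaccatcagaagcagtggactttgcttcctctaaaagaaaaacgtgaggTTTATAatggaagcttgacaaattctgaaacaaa
Ptpn6, chr6:124738660-124738959, minus strand: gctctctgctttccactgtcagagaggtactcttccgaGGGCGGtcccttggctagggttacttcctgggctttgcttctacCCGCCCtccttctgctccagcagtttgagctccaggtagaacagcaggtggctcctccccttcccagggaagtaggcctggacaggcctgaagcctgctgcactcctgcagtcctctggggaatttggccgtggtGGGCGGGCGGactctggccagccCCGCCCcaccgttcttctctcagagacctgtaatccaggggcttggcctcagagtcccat
Cbl, chr9:44233997-44234296, minus strand: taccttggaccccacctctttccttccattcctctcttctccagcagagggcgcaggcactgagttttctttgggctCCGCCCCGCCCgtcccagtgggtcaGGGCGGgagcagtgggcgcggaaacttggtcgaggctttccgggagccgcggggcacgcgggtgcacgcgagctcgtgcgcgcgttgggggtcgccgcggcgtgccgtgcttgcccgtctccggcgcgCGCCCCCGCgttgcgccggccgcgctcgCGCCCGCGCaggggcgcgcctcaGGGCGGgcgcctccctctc

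The motifs searched were an EGR site (GCGNGGGCG), an AP-1 site (TGANTCA), a cAMP response element (TGACGTCA), an E-box (CACGTG), an ETS site (CCGGAAGT), an octamer (ATGCAAAT), the NF-kB site, a GC box (GGGCGG) and a TATA box (TATAAA). Neither start of Ubash3b held any of these. The Ptpn6 window held 5 GC box matches, of which the pair starting at positions -33 and -29 from the start site overlap, and the Ptpn22 window held 1 TATA box match, at position 16 on the opposite strand. The Cbl window held 2 EGR matches and 4 GC box matches. Of the 32851 windows of 300 bases in the reference, 5.55% held an EGR match, 35.7% a GC box and 13.6% a TATA box. The Cbl window held 43 CpG pairs, that of Ubash3b 5, that of Ptpn22 6 and that of Ptpn6 8. These matches describe the reference letters only; NOD and NR4 sequence was not analysed here.

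Ubash3b, the SYK phosphatase, had a lower signal in NOD than in NR4 on every array. In unstimulated NOD cells its centred log2 signal was -0.44, -0.67 and -0.65 in replicates 1 to 3, and in anti-IgM NOD cells it was -0.24 and -0.46. In unstimulated NR4 cells it was 0, 0.36 and 0.13, and in anti-IgM NR4 cells 0.24, 0.35 and 0.09. All 5 NOD arrays lay below all 6 NR4 arrays, with the highest NOD array 0.24 below the lowest NR4 array. From low to high, the group means were -0.59 ± 0.13 (SD, n = 3) in unstimulated NOD, -0.35 ± 0.15 (SD, n = 2) in anti-IgM NOD, 0.16 ± 0.18 (SD, n = 3) in unstimulated NR4 and 0.23 ± 0.13 (SD, n = 3) in anti-IgM NR4. The 2 cultures of each strain overlapped, and the gap between the second and the third group exceeded the SD of either.

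Averaged over both cultures Ubash3b was lower in NOD by a log2 difference of -0.66 (SE 0.09), a 1.59-fold difference in signal. It was -0.75 (SE 0.12) in unstimulated cells and -0.58 (SE 0.14) in anti-IgM cells. Between arrays of the same replicate number it ranged from -1.03 to -0.44 over the 3 unstimulated pairs and was -0.48 and -0.81 in the 2 anti-IgM pairs. With each array left out in turn the averaged difference stayed between -0.72 and -0.61. As a description of how often such a separation occurs, 0.528% of all genes were lower in NOD without overlap in both cultures; the gene was chosen for this contrast and nothing is read from that share.

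Averaged over cultures, the 3 probe sets of Ubash3b showed this difference to a similar extent. The averaged log2 difference, NOD minus NR4, was -0.71 (SE 0.14) for 1429475_at, -0.61 (SE 0.10) for 1435703_at and -0.66 (SE 0.10) for 1436805_at. They differed more in the response to anti-IgM, at 0.33 (SE 0.14), 0.09 (SE 0.10) and 0.17 (SE 0.10) in the same order, and none of the 3 passed (limma adjusted p = 0.41, 0.92 and 0.67), where 1.01% of all probe sets did. On 1429475_at alone the strains nearly met, with NOD anti-IgM replicate 1 at -0.01 and NR4 unstimulated replicate 1 at 0. The SD of the unstimulated NOD arrays was 0.35 for 1429475_at, 0.12 for 1435703_at and 0.17 for 1436805_at. A sequence difference under the probes was not tested.

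**Figure D1:**
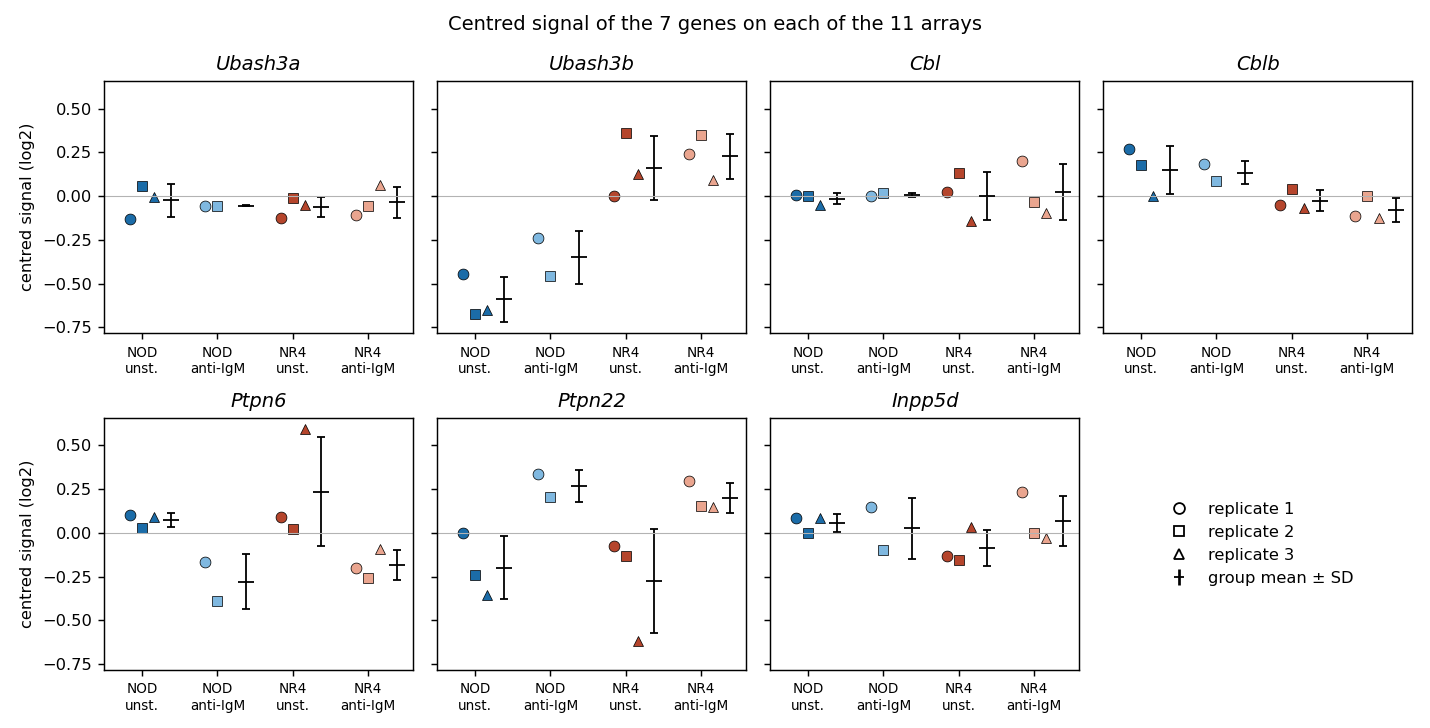
Centred log2 signal (vertical axis) of each of the 7 genes on the 11 arrays, by strain and culture; symbols give the replicate number and black marks the group mean with its SD. Ubash3b is below -0.2 on all 5 NOD arrays and at or above 0 on all 6 NR4 arrays, Ptpn6 is lower and Ptpn22 higher on every anti-IgM array than on every unstimulated array of the same strain.

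Ubash3b lies on chromosome 9, outside the chromosome 4 segment that defines NR4, and strain sequence around it was not analysed. Its 10 nearest measured neighbours, 5 on each side in the GRCm38.p6 gene order, had averaged strain differences from -0.35 to 0.18 log2 units, and none passed (limma, lowest adjusted p = 0.43). The lowest was that of Clmp, an adhesion molecule gene, at -0.35 (SE 0.09). Sorl1 and Crtam, closer to Ubash3b than Clmp, were at -0.01 (SE 0.09) and 0.00 (SE 0.08). Cbl lies on the same chromosome and differed by -0.02 (SE 0.08).

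Over the 11 arrays, the genes whose values were most like those of Ubash3b were Fgr, Lrp8, Stx12 and Frmd4a. Likeness was the root mean square difference between 2 genes after each was centred on its own mean, and it was 0.17 log2 units for Fgr, 0.18 for Lrp8, 0.18 for Stx12 and 0.19 for Frmd4a, where the median over all genes was 0.41. Fgr encodes an SRC family kinase, Lrp8 a lipoprotein receptor and Stx12 a syntaxin of vesicle fusion. These 3 lie on chromosome 4 and Frmd4a on chromosome 2. Their averaged strain differences, NOD minus NR4, were -0.50 (SE 0.08), -0.74 (SE 0.11), -0.51 (SE 0.09) and -0.48 (SE 0.10) in the same order, so they were found through the contrast for which Ubash3b was chosen. Among the other 6 genes Cbl was nearest at 0.36 and Cblb farthest at 0.46, all about as far as a gene that does not vary, since the spread of Ubash3b around its own mean was 0.37.

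**Figure D2:**
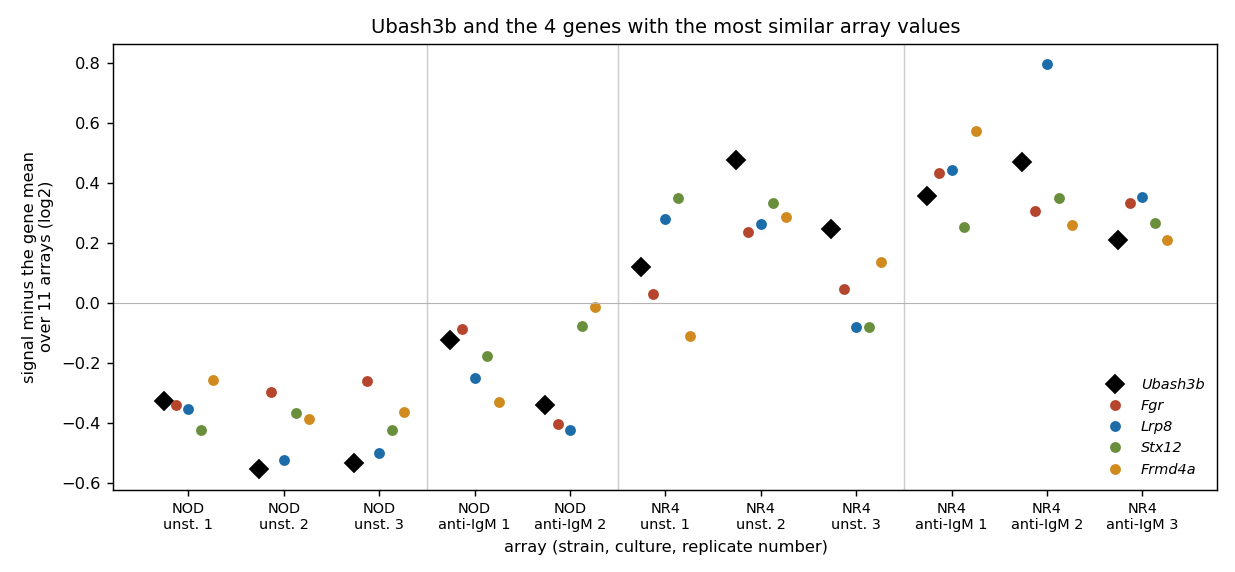
Log2 signal of Ubash3b (diamonds) and of Fgr, Lrp8, Stx12 and Frmd4a (circles) on each array, each gene minus its mean over the 11 arrays. All 5 genes are below 0 on the 5 NOD arrays; on the NR4 arrays Ubash3b and Fgr are above 0 throughout, while Lrp8 and Stx12 in unstimulated replicate 3 and Frmd4a in unstimulated replicate 1 are not.

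The paralogue Ubash3a, which is expressed mainly in T cells, showed no such separation. Its values ran from -0.13 to 0.06 over all 11 arrays, and the groups overlapped in every comparison. The averaged strain difference was 0.01 (SE 0.07, 95% interval -0.14 to 0.16). Its response to anti-IgM was -0.00 (SE 0.07, 95% interval -0.15 to 0.15; limma adjusted p = 1.00). Its 2 probe sets responded at -0.07 and 0.06 and neither passed. Of the T cell markers 12 of 14 were measured, none passed either averaged comparison, and their array medians ran from -0.23 to 0.18 in unstimulated NOD, -0.03 to 0.30 in anti-IgM NOD, -0.25 to 0.11 in unstimulated NR4 and -0.08 to 0.17 in anti-IgM NR4.

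Of the ubiquitin ligase genes, Cbl overlapped between all groups, and the strains were separate for Cblb in anti-IgM cells. Cbl ranged from -0.14 to 0.20 over the 11 arrays with overlap of all groups, and its averaged response was 0.02 (SE 0.08, 95% interval -0.15 to 0.20; limma adjusted p = 0.99). Its probe set 1450457_at stood at 0.85 on NOD unstimulated replicate 1 and between -0.29 and 0.40 on the other arrays, while the other 2 probe sets of Cbl were at 0.01 and -0.02 on that array.

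Cblb, the ligase whose loss lowers the threshold for lymphocyte activation, was at 0.27, 0.18 and 0 on the unstimulated NOD arrays and at 0.18 and 0.09 on the anti-IgM NOD arrays. On the NR4 arrays it was at -0.05, 0.04 and -0.07 unstimulated and at -0.11, 0 and -0.13 with anti-IgM. The strains did not overlap in anti-IgM cells, where 7.97% of all genes were higher in NOD without overlap, and they overlapped in unstimulated cells. The averaged strain difference was 0.19 (SE 0.07, 95% interval 0.03 to 0.35) and did not pass (limma adjusted p = 0.98). Same-numbered arrays were higher in NOD by 0.07 to 0.32 in 3 of 3 unstimulated pairs and by 0.09 and 0.29 in the 2 anti-IgM pairs. Probe sets 1437304_at and 1455082_at were higher in NOD by 0.37 (SE 0.09) and 0.34 (SE 0.09), at limma adjusted p = 0.64 and 0.65 (0.118% of all probe sets passed), and 1458469_at was at -0.03 (SE 0.16). In response to anti-IgM the same probe sets were at 0.11, -0.26 and -0.01, and none passed (limma). The second was at -0.43 (SE 0.12, limma adjusted p = 0.23) in NR4 and -0.09 (SE 0.13) in NOD. Its NOD response minus NR4 response was 0.35 (SE 0.18) and did not pass either. The gene's response of -0.03 (SE 0.07) is thus a median of probe sets that differ in sign, and the lowest-numbered one alone gives 0.11.

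Over the 6 genes other than Ubash3b, none passed the averaged strain difference (limma), where 0.121% of all genes did and 1 of the 6, Cblb, had an unadjusted p under 0.05 (4.39% of all genes). None of the 6 passed in unstimulated or in anti-IgM cells, where 0.0605% and 0.0495% of all genes did, and none had an unadjusted limma p under 0.05 there (1.54% and 4.34% of all genes). Averaged differences of the 6 ran from -0.13 for Ptpn6 to 0.19 for Cblb.

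**Figure D3:**
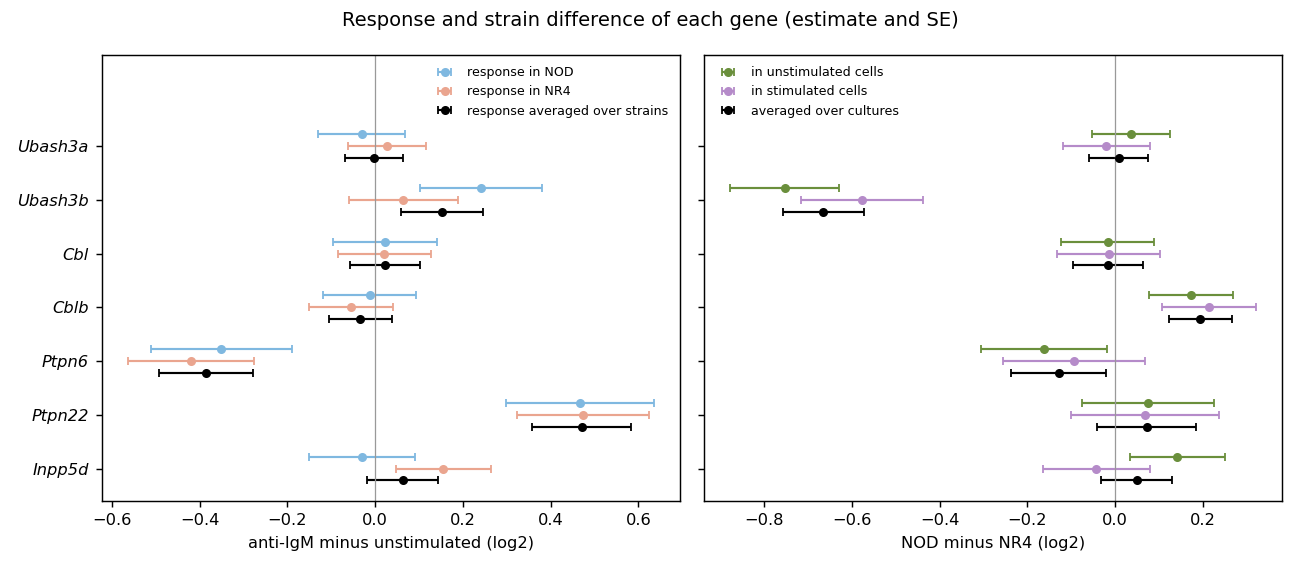
Log2 differences with their SE for the 7 genes: on the left anti-IgM minus unstimulated, on the right NOD minus NR4. On the left Ptpn6 (-0.39 averaged) and Ptpn22 (0.47) stand away from 0 in both strains; on the right Ubash3b (-0.66) does, which is a description of the gene chosen for it.

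The culture contrast was not used to select Ubash3b and was tested for all 7 genes. None passed averaged over strains (limma, Benjamini-Hochberg over 18193 genes), where 1.56% of all genes did. None passed in NR4 alone (0.412% of all genes) or in NOD alone (0.115%). At an unadjusted p under 0.05 there were 2 of the 7 in the average (11.4% of all genes) and 2 in NR4 (9.63%), Ptpn6 and Ptpn22 both times, and 1 in NOD, Ptpn22 (5.15%). With the replicate number as a block, 1 of the 7 passed, Ptpn22, where 3.07% of all genes did. That block is shared by both strains, so it does not pair the cultures of a lot within a strain. After quantile normalization the same gene passed, where 1.69% of all genes did. The median response of the 7 was 0.02, and that of all genes 0.00.

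Ptpn22, the phosphatase of SRC family kinases whose human coding variants are linked to autoimmunity, was higher on every anti-IgM array than on every unstimulated array of its strain. In NOD it was at 0, -0.24 and -0.35 unstimulated and at 0.33 and 0.20 with anti-IgM. In NR4 it was at -0.08, -0.13 and -0.62 unstimulated and at 0.30, 0.15 and 0.15 with anti-IgM. Such a separation upward in both strains held for 2.08% of all genes.

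The averaged response of Ptpn22 was 0.47 (SE 0.11, 95% interval 0.22 to 0.72), a 1.39-fold difference, and did not pass (limma adjusted p = 0.080). It was 0.47 (SE 0.17) in NOD and 0.47 (SE 0.15) in NR4. Same-numbered arrays differed by 0.33 and 0.44 in NOD and by 0.37, 0.28 and 0.77 in NR4. The direction of all 5 pairs is already fixed by the separation of the arrays. With the replicate number as a block the response was 0.42 (SE 0.08) and passed (limma adjusted p = 0.028). It also passed after quantile normalization of the centred values, at 0.49 (limma adjusted p = 0.044). Over the single arrays left out it ran from 0.39 to 0.52 with adjusted p from 0.086 to 0.24, the lowest estimate being that without NR4 unstimulated replicate 3, and it was 0.45 without NR4 anti-IgM replicate 1. Ptpn22 rests on 1 probe set.

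Ptpn6, which encodes the phosphatase SHP-1, moved the other way. In NOD it was at 0.10, 0.03 and 0.09 unstimulated and at -0.17 and -0.39 with anti-IgM. In NR4 it was at 0.09, 0.02 and 0.59 unstimulated and at -0.20, -0.26 and -0.09 with anti-IgM. No anti-IgM array reached an unstimulated array of its strain, a downward separation found in both strains for 3.56% of all genes.

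The averaged response of Ptpn6 was -0.39 (SE 0.11, 95% interval -0.63 to -0.15), a 1.31-fold difference, and did not pass (limma adjusted p = 0.13, and 0.075 with the replicate block). It was -0.35 (SE 0.16) in NOD and -0.42 (SE 0.14) in NR4. The 5 same-numbered pairs differed by -0.69 to -0.27, a direction already fixed by the separation of the arrays. Both probe sets gave this direction, at -0.34 (SE 0.11) for 1456694_x_at, a set whose suffix marks probes that can match other transcripts, and at -0.44 (SE 0.12) for 1460188_at. NR4 unstimulated replicate 3 held both the highest Ptpn6 value and the lowest Ptpn22 value of the 11 arrays, and without it the Ptpn6 response was -0.30 (-0.24 in NR4) and that of Ptpn22 0.39 (0.30 in NR4). NR4 unstimulated replicate 3 also had the highest control 3' to 5' difference of the unstimulated arrays, at 0.29. Without NR4 anti-IgM replicate 1 the Ptpn6 response was -0.38.

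Inpp5d, the lipid phosphatase gene, ranged from -0.16 to 0.23 over the 11 arrays and its groups overlapped in every comparison. Its averaged response was 0.06 (SE 0.08, 95% interval -0.12 to 0.24; limma adjusted p = 0.92), at 0.15 (SE 0.11) in NR4 and -0.03 (SE 0.12) in NOD. Probe set 1418110_a_at was at -0.06 (SE 0.07) and 1424195_a_at at 0.18 (SE 0.14), and in NR4 they were at -0.05 and 0.36. The second set stood at 0.52, 0 and -0.04 on the 3 anti-IgM NR4 arrays. The value of 0.52 was on the array with the largest control 3' to 5' difference. Without that array the NR4 response of Inpp5d was 0.07, and the part of RNA quality in it was not tested.

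The response of Ubash3b itself was 0.15 (SE 0.09, 95% interval -0.05 to 0.36; limma adjusted p = 0.67), with 0.24 (SE 0.14) in NOD and 0.06 (SE 0.12) in NR4. Whether any of the 7 responded differently in the strains was tested as the interaction, NOD response minus NR4 response. None passed (limma), 0.0% of all genes did, and none of the 7 had an unadjusted p under 0.05 (1.4% of all genes). The estimates ran from -0.18 (SE 0.16) for Inpp5d to 0.18 (SE 0.19) for Ubash3b, and that of Ptpn22 was -0.01 (SE 0.23, 95% interval -0.51 to 0.49), an interval that includes differences as large as the response itself.

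**Figure D4:**
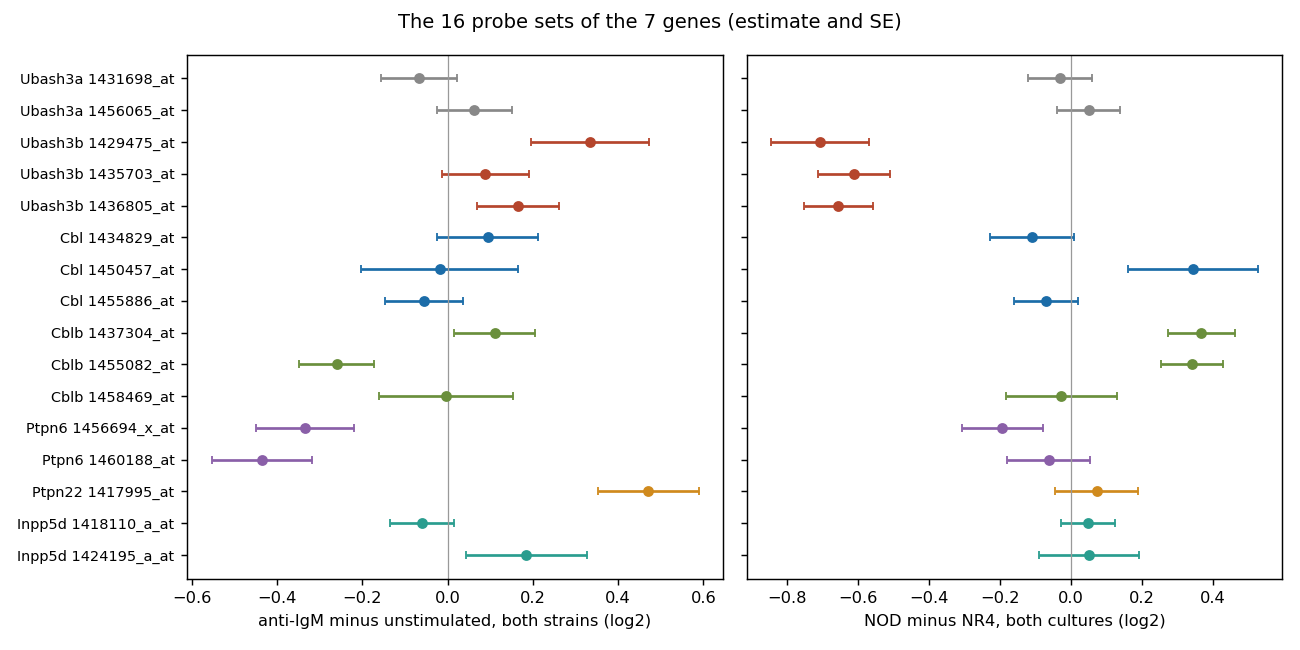
Averaged response (left) and averaged strain difference (right), in log2 units with SE, of each of the 16 probe sets. The 3 sets of Ubash3b lie together between -0.71 and -0.61 on the right and both sets of Ptpn6 are below -0.3 on the left, while the sets of Cblb differ in both panels.

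The surrounding pathway was taken from 4 lists of genes. Of the 15 receptors listed with inhibitory motifs, the class that recruits PTPN6 and INPP5D, 13 were measured; 1 rose with anti-IgM, 3 fell and 9 did not pass (limma, averaged over strains, 1.56% of all genes called). Cd22, the sialic acid-binding coreceptor that recruits PTPN6, fell by 0.99 (SE 0.18, limma adjusted p = 0.026), and by 0.94 with its lowest-numbered probe set alone, where it did not pass (limma adjusted p = 0.053). Pecam1, an adhesion receptor, fell by 0.97 (SE 0.17), and Fcrl1 fell by 0.55 (SE 0.10). Fcrl1 stands in the list as an Fc receptor-like gene, but its protein is known as an activating coreceptor of B cells, so 2 of the 3 that fell are of the inhibitory class. Cd5, a scavenger-type receptor that dampens antigen receptor signals, rose by 0.95 (SE 0.17). Fcgr2b, the receptor of INPP5D, was at -0.58 (SE 0.16, limma adjusted p = 0.13) and Siglecg, a relative of Cd22, at -0.70 (SE 0.15, limma adjusted p = 0.059). Pdcd1, the checkpoint receptor PD-1, was at 0.70 (SE 0.24, limma adjusted p = 0.24). The list's median was -0.24, with 3 of 13 above 0, beside 0.00 over all genes. With the replicate block 2 rose, Cd5 and Pdcd1, and 5 fell, the same 3 with Siglecg and Ceacam1, where 3.07% of all genes were called.

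For Cd22, values were 0.32, 0.30 and 0.49 in unstimulated NOD and -0.30 and -0.48 in anti-IgM NOD. In NR4 they were 0.41, 0 and 1.03 unstimulated and -1.11, -0.75 and -0.38 with anti-IgM. The cultures did not overlap in either strain, a downward separation that 3.56% of all genes showed. Cd22 is described here because it was called in this response. NR4 unstimulated replicate 3 was the highest array, as for Ptpn6.

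Of 18 listed kinases and adaptors of the B cell receptor, 16 were measured, 1 fell and 15 did not pass, against the same share of all genes. The gene that fell was Cd79b, a signalling chain of the receptor, by 0.62 (SE 0.10, limma adjusted p = 0.016). Syk, the kinase on which UBASH3B acts, was at -0.49 (SE 0.11, limma adjusted p = 0.053). With the replicate block it was at -0.50 and passed (limma adjusted p = 0.023). With that block 2 genes of the list fell, where 3.07% of all genes were called. Btk, a kinase downstream of SYK, was at -0.29 (SE 0.09, limma adjusted p = 0.21), and the list's median was -0.05.

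Of 16 listed ubiquitin ligases and CBL partners, 15 were measured, 1 rose, 1 fell and 13 did not pass. Of all genes, 1.56% were called (limma, averaged over strains). Spry1, whose protein family binds CBL and restrains growth factor signalling, rose by 1.23 (SE 0.21, limma adjusted p = 0.019), at 1.49 (SE 0.31) in NOD and 0.96 (SE 0.28) in NR4, a difference between strains of 0.54 (SE 0.42) that did not pass (limma adjusted p = 1.00). Nedd4, a HECT ubiquitin ligase, fell by 0.74 (SE 0.13, limma adjusted p = 0.023). Cd2ap, an adaptor that binds CBL, was at -0.33 (SE 0.08, limma adjusted p = 0.083), and the median of the list was -0.03. Of 23 listed other phosphatases and inhibitory adaptors, 21 were measured and none passed (limma), with a median of -0.01. With the replicate block Ptpn1, a tyrosine phosphatase of the endoplasmic reticulum, passed at 0.39 and the receptor phosphatase gene Ptprj at -0.33. Of all genes, 3.07% were called with the block. The partners of PTPN22 and the relative of PTPN6 in that list, Csk and Ptpn11, were at -0.26 (SE 0.20) and -0.07 (SE 0.12).

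**Figure D5:**
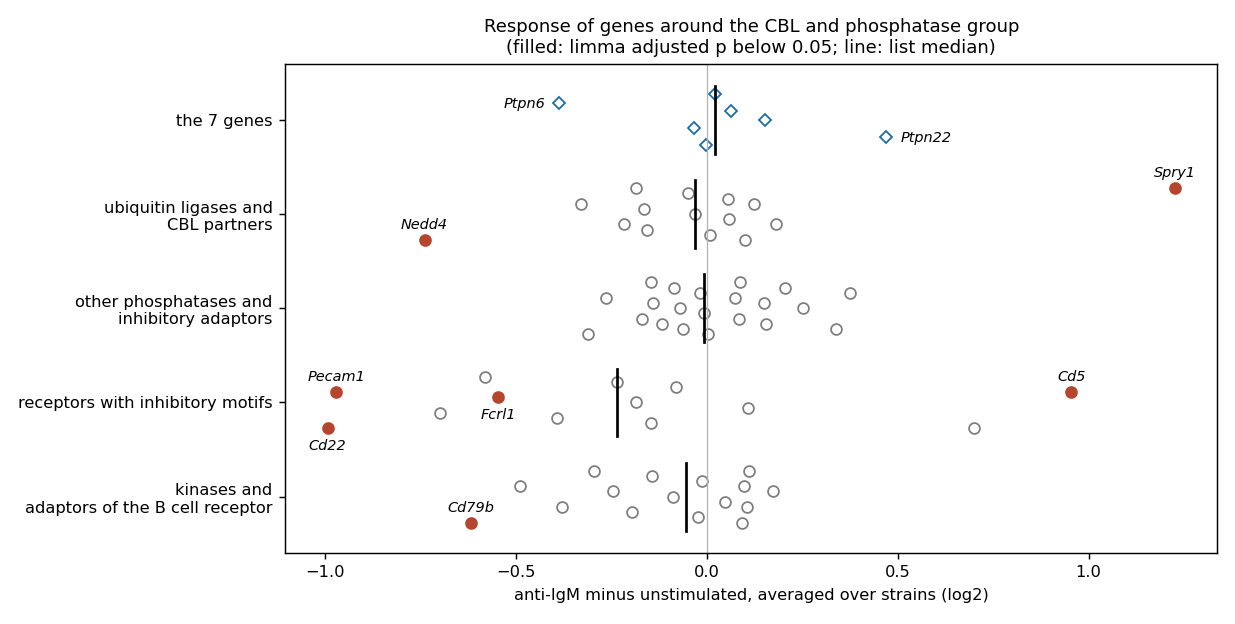
Averaged response to anti-IgM in log2 units (horizontal axis) of every measured gene of the 4 lists (circles, filled where limma adjusted p is below 0.05) and of the 7 genes (diamonds); vertical lines are medians. The called genes run from Cd22 at -0.99 to Spry1 at 1.23, and Ptpn22 and Ptpn6, at 0.47 and -0.39, are open.

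These 7 pathway calls kept their direction over single arrays left out but not their side of the threshold. Without NOD anti-IgM replicate 2 none of the 7 remained called (limma adjusted p from 0.064 to 0.13), without NOD unstimulated replicate 2 there was 1, without NOD anti-IgM replicate 1 there were 2, and without the other 8 arrays 3 to 6. With only the arrays numbered 1 and 2 there was 1. NR4 anti-IgM replicate 1 was the array with the largest 3' to 5' difference. Without NR4 anti-IgM replicate 1, Cd22 was at -0.90 and Cd5 at 0.90 and neither passed (limma adjusted p = 0.052 and 0.057). The other 5 passed without it, with Spry1 at 1.11, Pecam1 at -1.06, Nedd4 at -0.82, Cd79b at -0.54 and Fcrl1 at -0.50. No gene of the 4 lists passed the averaged strain difference (limma).

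Markers of other cells were compared beside these results. Of the 9 B cell markers measured, 4 fell with anti-IgM (Cd22, Cd79b, Cd37 and Ms4a1; 1.56% of all genes were called), none rose and the median was -0.51; their array medians ran from -0.12 to 0.24 in unstimulated and from -0.48 to 0.00 in anti-IgM cells. This is the direction of Ptpn6, and their part in its values was not tested. Between strains no marker in any of the 9 lists passed (limma, averaged over cultures). The NK and cytotoxic list, 8 of 8 measured, had a median strain difference of 0.34, with array medians of -0.02 to 0.16 in unstimulated NOD, 0.12 to 0.13 in anti-IgM NOD, -0.62 to 0.20 in unstimulated NR4 and -0.24 to 0.09 in anti-IgM NR4. The NOD and NR4 arrays overlapped in these medians. Platelets are rich in Ubash3b, and their list, 7 of 7 measured, had a median strain difference of -0.03, with array medians of -0.05 to 0.08, 0.00 to 0.07, -0.16 to 0.00 and -0.09 to 0.27 in the same order of groups. The median strain difference was 0.00 for the monocyte list and 0.05 for the T cell list. The T cell markers were not alike in it. Of the 12 measured, 6 were above 0, and Cd8b1 was at -0.64 (SE 0.14). Its array values were also near those of Ubash3b, at a root mean square difference of 0.22. With the replicate block 1 marker, Cd4, was lower in NOD, where 37 of 18193 genes were called. The part of other cells in the values of Ubash3b was not tested.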

How the data were processed

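RNA of 11 B cell cultures was amplified in 1 cycle, biotin-labelled and hybridized to 1 array each. The deposited log2 values were made by the authors with RMA, per the submitters' processing notes; the software version and the log base are unstated there, and base 2 was assumed. All 45101 probe sets have a median of 0 over the arrays (within 1e-09), a centring the notes do not mention. Gene symbols came from the platform annotation (1 symbol for 34945 probe sets), and 99.4% of these matched the RefSeq table of GRCm38.p6, used for names and gene order. Probe sets of 1 gene were summarised by their median.

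One limma 3.58.1 model (R 4.3.3) with a mean per group was fitted to 18193 genes on all 11 arrays (7 residual degrees of freedom), with empirical Bayes moderation, two-sided tests and Benjamini-Hochberg adjustment per comparison at 0.05; an analogous fit covered single probe sets. It was tested on simulated data with independent noise on each array, which leaves out shared deviations of same-numbered arrays. P-values weigh each difference against the spread between arrays within groups, pooled over the groups and moderated over all genes. Each array is a pool of mice, so the spread between mice was not measured. The main fit treats all cultures as independent, although both cultures of a strain were drawn from its lots. No fit paired the cultures of a lot within a strain.

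Genes, lists and rules were chosen with earlier results of these data known. Named genes are the 7 members, list genes called in averaged comparisons, and the 4 nearest to Ubash3b in array values, leaving out predicted genes. Syk, Btk, Fcgr2b, Siglecg, Pdcd1, Ceacam1, Cd2ap, Csk, Ptpn11, Ptpn1, Ptprj, Cd8b1 and the chromosome 9 neighbours were added after their values were seen. Lists without a count in the report (dendritic, erythroid, plasma cells, neutrophils) had no called member in either averaged comparison, except Itgax, which rose with anti-IgM.

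Same-numbered arrays deviated together: correlations over genes of deviations from group means were 0.59, 0.21 and 0.51 between unstimulated strains and 0.33, 0.22 and 0.47 between NR4 cultures. With stimulated NOD cells, only 2 pairs exist (0.63 and 0.12 with unstimulated NOD, 0.37 and -0.12 with stimulated NR4) and pairing by number is not established. Alternatives were the replicate number as a block, the mean or the lowest-numbered probe set, quantile normalization, robust moderation, each array left out and arrays numbered 1 and 2 only. Quantile normalization was applied to the centred values, so it made the distribution of deviations equal across arrays and not that of signal.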

Additional observations from a re-analysis of the deposited data

How the results depend on the processing

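Of the counts over all genes, the averaged response gave 283 calls, 558 with the replicate block, 64 with the arrays numbered 1 and 2, and 76 to 273 over single arrays left out, the lowest without NOD anti-IgM replicate 2. The response in NR4 gave 75, 229 with the replicate block, 16 after quantile normalization, 0 with the arrays numbered 1 and 2 (1870 at an unadjusted limma p under 0.05) and 21 to 50 over single arrays. The response in NOD gave 21, 52 with the block, 9 after quantile normalization, 1 with the arrays numbered 1 and 2, and 0 to 25 over single arrays; the 0, without NOD anti-IgM replicate 2, came with 922 genes at an unadjusted limma p under 0.05. The averaged strain difference gave 22, 37 with the block, 9 with the arrays numbered 1 and 2, and 12 to 21 over single arrays, and that in anti-IgM cells gave 9, and 4 to 10 over single arrays. Of the 7 members 0 were called in the averaged response and 1, Ptpn22, with the block or after quantile normalization; the block changed no other call of a member.

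Member values changed sign in 5 cases, none called, leaving aside changes smaller than the SE in both fits: with the lowest-numbered probe set, Cblb in the averaged response (0.11, also as probe set 1437304_at alone) and in NOD (0.20), and Inpp5d in NR4 (-0.049); and Ptpn6 between unstimulated strains, which ran from -0.27 to 0.016 over single arrays left out, the last without NR4 unstimulated replicate 3. The strain difference of Ubash3b in unstimulated cells was -0.91 after quantile normalization. The other 806 of 814 recomputed member values showed no such change and kept their side of the threshold. Groups of 2 or 3 arrays limit precision.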
